A study of Mus musculus with 18 samples.

Results

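Ptbp1, which encodes polypyrimidine tract binding protein 1, was silenced in one mouse experiment and overexpressed in another, and the genes described here are those whose ribosome-bound mRNA moved in the same direction under both vectors. All 18 of the 18 libraries were used, and every gene was described by its own fold change in each experiment and by the sum of the 2 log2 fold changes, termed the summed response. In silencing, 4 libraries are labelled Ptbp1_shRNA and 5 Scrambled_shRNA. In overexpression, 5 are labelled PTBP1 OE and 4 control OE. All 4 vectors carried mCherry, each library came from 1 mouse with both entorhinal cortices pooled, and the submitters left out 1 mouse of the shRNA group and 1 of the control OE group for lack of mCherry reads. Ribosome-bound mRNA was isolated by TRAP (translating ribosome affinity purification), in which tagged ribosomes of chosen cells are captured with their mRNA. The series title names layer II neurons of the entorhinal cortex, although the tissue given for all libraries is hippocampus. No source used here gives the promoter that drives the tag or the age of the mice. Mice are the replicates, so the p-values set a difference against the spread between mice within groups. For the sum and the difference of both responses, 1 spread was shared by all 4 groups.

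Ptbp1 binds pyrimidine-rich stretches of RNA and keeps many exons out of mRNA. In neurons its paralog Ptbp2 takes over much of this work, and Ptbp1 itself is kept low, partly through a microRNA. Silencing and overexpression are meant to move the level of one protein in opposite directions, but protein was not measured in these data. If both vectors did so, a gene that follows that level would be lower in one experiment and higher in the other. A gene that moves alike does not show that pattern, and what moves it was not tested.

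Ptbp1 itself was the first gene examined, because it is the target of both vectors. Its level was 6.57, 0.101, 0.588 and 13.1 CPM (counts scaled to a common library size, with TMM factors within each experiment) in the 4 Ptbp1 shRNA libraries. It was 3.38, 0.93, 6.72, 0.349 and 9.11 CPM in the scrambled libraries. The silencing groups overlapped throughout, with a log2 difference of -0.18 on the log2(CPM + 0.5) scale (exact two-sided permutation p = 0.921), so a lower Ptbp1 level was not detectable in the libraries labelled Ptbp1 shRNA, and every silencing result below rests on the label. With the PTBP1 vector the level was 136, 143, 158, 129 and 118 CPM, against 17.2, 13.5, 9.96 and 12.3 CPM with the control vector. These groups did not overlap, and the level was 10.1-fold higher (exact permutation p = 0.0159, the smallest that 5 against 4 libraries allow). Reads of Ptbp1 may not be told apart from those of Plppr3, which overlaps it on the opposite strand, since the sources do not say whether strand was used in counting. Ptbp2 was 41.0, 55.1, 41.5, 46.8 and 53.1 CPM with the PTBP1 vector and 107 to 113 CPM with its control, without overlap. In silencing it lay between 75.9 and 313 CPM with the shRNA and between 167 and 259 CPM with the scrambled shRNA, and its log2 fold change was -0.18 (SE 0.34) against -1.20 (SE 0.10) in overexpression.

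The experiments differed in precision. Gene counts summed to 34339355 to 46544178 per silencing library and to 18288627 to 39056655 per overexpression library. The coefficient of biological variation was 90.1% in silencing and 22.3% in overexpression, and the median size of a gene's log2 fold change was 0.558 and 0.113. Coverage of 56285 strongly counted exon bins was less even in silencing, where 1.24% to 8.3% of them held no count, than in overexpression, where 0.0213% to 0.0551% held none. The highest shares were in Ptbp1 shRNA replicate 2 (8.3%) and scrambled replicate 5 (7.61%). Markers of superficial entorhinal neurons were detected in all groups, with Reln at 97.5 to 397 CPM, Calb1 at 65.9 to 218 CPM and Camk2a at 814 to 3750 CPM. Defining markers of microglia (C1qa), oligodendrocytes (Mag) and vessels (Cldn5) were at 0 in all 9 silencing libraries and at most 0.57, 1.36 and 1.23 CPM in overexpression. In such bulk RNA, fewer cells of a type and less RNA per cell cannot be told apart.

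Over all 14367 genes tested in both experiments and in the joint fit, the directions of the responses were nearly unrelated. The fold changes had the same sign in 7400 genes (51.5%), 3673 higher in both and 3727 lower in both. Across genes, Pearson's r was 0.0315 and Spearman's rank correlation 0.04, a description in which the genes are not independent replicates and no library is shared. An unadjusted p under 0.05 was reached by 11.3% of genes in silencing and by 4.62% in overexpression (edgeR's quasi-likelihood test). Both thresholds were passed by 87 genes, which is 5.38% of those that passed in silencing, close to the 4.62% of all genes. Of the 87, 68 moved in the same direction (0.473% of genes tested) and 19 in opposite directions (0.132%). The 68 genes are termed alike below: 34 were higher in both (0.237%) and 34 lower in both (0.237%). Where the larger of a gene's 2 p-values was adjusted over all genes, the smallest adjusted p was 1, so the list of 68 is a description at unadjusted p and not a set of calls. The groups lay apart without overlap in both experiments for 17 genes in the same direction (0.118%) and 3 in opposite directions (0.0209%).

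**Figure D1:**
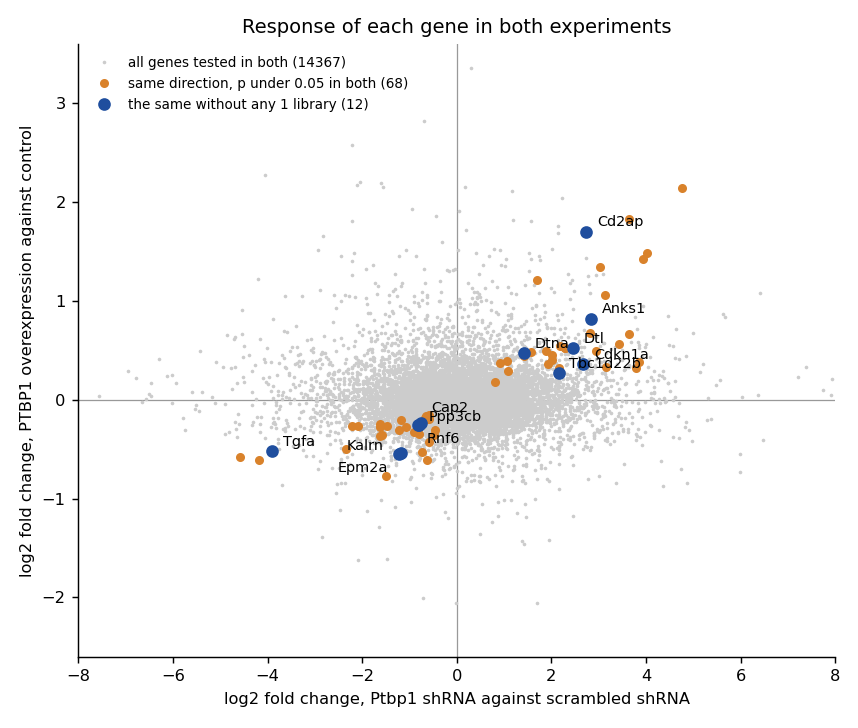
Log2 fold change of each of the 14367 genes in overexpression (vertical axis) against that in silencing (horizontal axis), with 14 points outside the axes. Orange points are the 68 alike genes and blue points the 12 that kept this without any 1 library; the cloud of all genes has no visible slope.

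The summed response was called for 103 of 17779 genes (0.579%) at an adjusted p under 0.05 (edgeR quasi-likelihood test over all 18 libraries), 44 higher (0.247%) and 59 lower (0.332%). With upper quartile scaling 149 genes were called and 32.2% of them were higher, against 42.7% in the 103, and with limma voom 52.9% of 102 were higher. DESeq2 called 754 genes, 435 were called without the 2 silencing libraries with the most bins at 0, and 36 (without control OE replicate 3) to 350 (without Ptbp1 shRNA replicate 4) were called without 1 library. Of the 103, 97 were tested in both separate fits, and 78 of these had the same sign in both, 29 higher and 49 lower. Over all genes tested in both, 51.5% had the same sign. A sum is larger where both signs agree, so calling by the sum itself favours such genes. All 97 had an unadjusted p under 0.05 in silencing but only 14 had one in overexpression, so most calls of the sum were carried by silencing. Silencing alone called 0 of 14656 genes (0%) in edgeR at an adjusted p under 0.05, with 1639 at an unadjusted p under 0.05, whereas DESeq2 called 434 and limma voom 69. The sum draws on 1 spread shared by both experiments. This assumes like variation in both, although it was 90.1% in silencing and 22.3% in overexpression. Adjusted p-values of the sum and the difference may therefore be too small for genes carried by silencing, which was not tested. The 14 genes called by the sum that were also alike were Dtna, Cd2ap, Cdkn1a, Dtl and D430042O09Rik among the higher, and Ppp3cb, Tgfa, Kalrn, Epm2a, Hecw2, Chn2, Igfbp5, Wipf3 and Dab1 among the lower. In all 68 alike genes the silencing fold change was the larger one, with a median size of 1.62 on the log2 scale against 0.384 in overexpression. The definition of alike favours this order. Variation was 90.1% in silencing and 22.3% in overexpression, so a gene generally needed a larger fold change to pass in silencing.

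Leaving out each of the 18 libraries in turn separated the alike genes. Of the 68, 12 stayed alike in all 18 of these fits, and the same 12 were alike in DESeq2 and limma voom. Of all 68, 26 were not alike in limma voom, among them Usp18, Wipf3, Igfbp5 and Dab1, and 2 were not alike in DESeq2, among them Snap25. Of the 12 that stayed alike in all 18 fits, Dtna, Cd2ap, Cdkn1a, Dtl, Anks1 and Tbc1d22b were higher. Ppp3cb, Tgfa, Kalrn, Epm2a, Rnf6 and Cap2 were lower. Opposite-strand exons of other genes overlap those of Dtna, Cdkn1a, Tgfa, Cap2, Anks1 and Tbc1d22b, so reads of these genes may be mixed. Without the 2 silencing libraries with the most bins at 0, 43 of the 68 remained alike, and 11 of the 12, Epm2a being the exception.

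**Figure D2:**
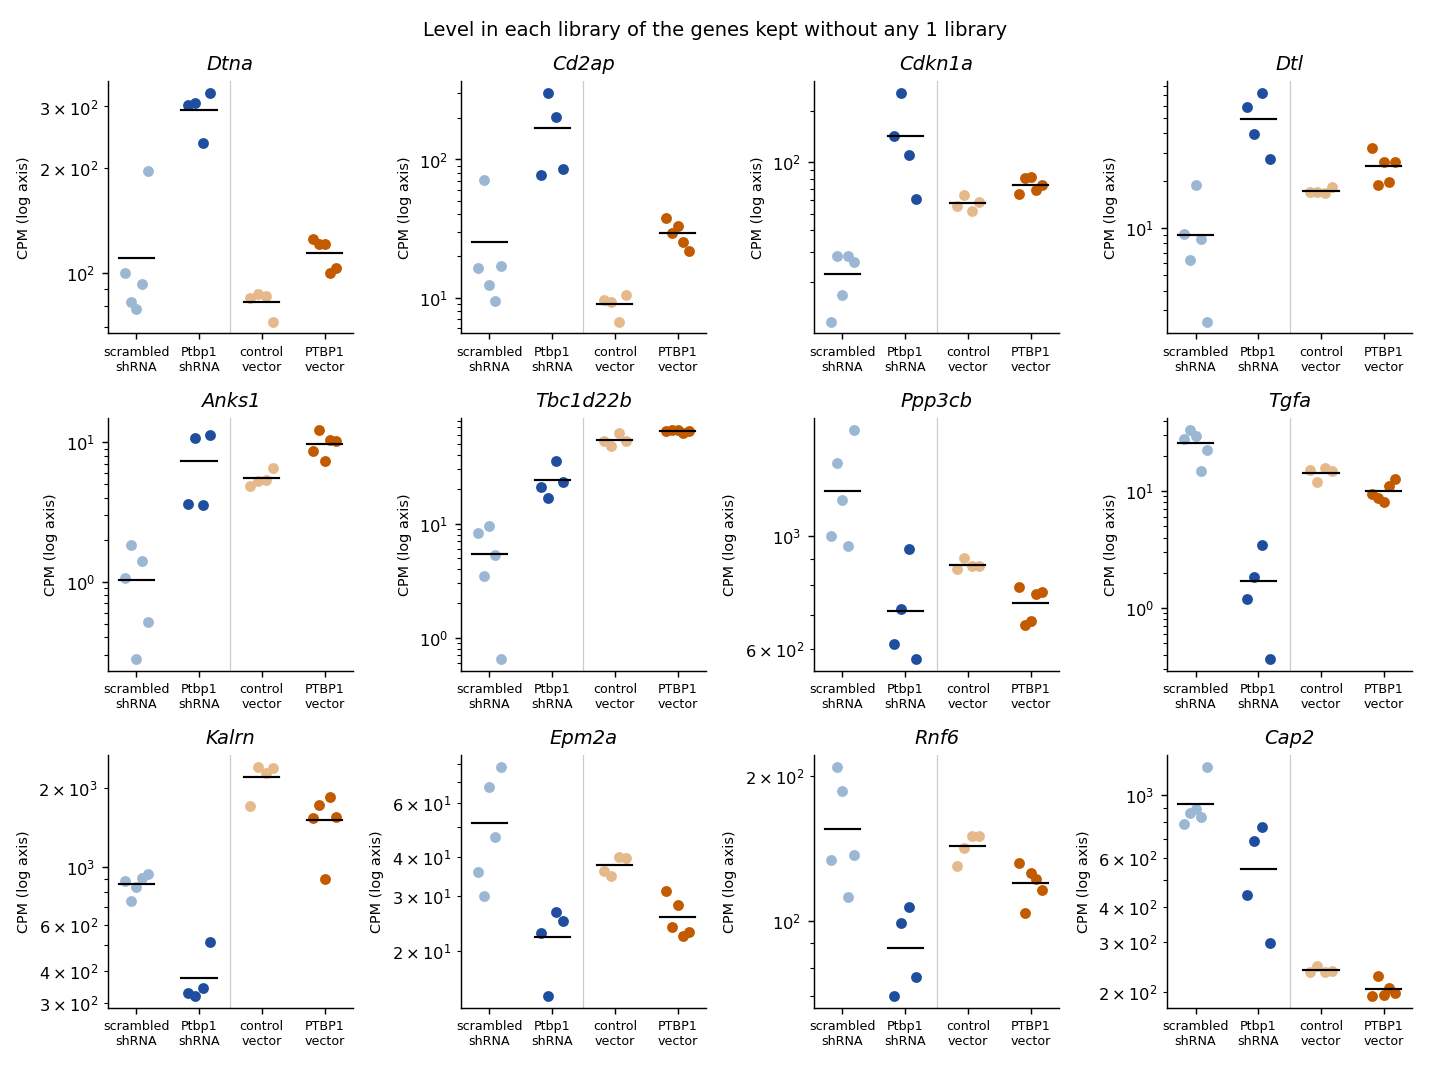
CPM on a log axis in each of the 18 libraries for the 12 genes that stayed alike without any 1 library, with the mean of each group as a bar. The shRNA points of Cd2ap lie at 76.6 to 305 CPM and its PTBP1 vector points at 21.9 to 37.8 CPM, each above all points of the matching control.

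Cd2ap, which encodes an adaptor that links membrane receptors and endocytosis to the actin cytoskeleton and is a known risk gene for Alzheimer's disease, gave the largest response in overexpression among the 12. The gene is at chr17:42792951-42876665 (mm10, minus strand, GENCODE M21), and no other gene's exon overlaps its exons there. It was at 76.6, 305, 204 and 85 CPM in the Ptbp1 shRNA libraries and at 16.4, 70.5, 12.3, 9.53 and 17 CPM in the scrambled libraries. With the PTBP1 vector it was at 37.8, 29.5, 33.2, 25.4 and 21.9 CPM and with the control vector at 9.7, 9.38, 6.67 and 10.5 CPM. Both pairs of groups lay apart, although scrambled replicate 2 came close to the lowest shRNA library. The level was 6.66-fold higher in silencing (log2 2.74, SE 0.62) and 3.26-fold higher in overexpression (log2 1.70, SE 0.18), where it was 1 of 7 genes of 16480 (0.0425%) called by that experiment alone (adjusted p = 0.000953). The summed response was 4.44 (SE 0.73, adjusted p = 0.0082), and it stayed called in all 28 alternatives.

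Dtna encodes alpha-dystrobrevin, a member of the dystrophin complex at the cell membrane, and is a textbook target of Ptbp1 splicing repression. Its level was 302, 306, 236 and 329 CPM with the Ptbp1 shRNA and 99.7, 82.6, 78.5, 92.5 and 196 CPM with the scrambled shRNA. In overexpression it was 125, 121, 121, 100 and 103 CPM against 84.8, 87.1, 86 and 72.2 CPM. All 4 shRNA libraries were above all scrambled ones, and all 5 PTBP1 vector libraries above all controls. The fold change was 2.67 in silencing (log2 1.42, SE 0.29) and 1.38 in overexpression (log2 0.47, SE 0.10), with a called sum of 1.89 (SE 0.31, adjusted p = 0.0082).

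Cdkn1a encodes p21, the inhibitor of cyclin-dependent kinases that p53 induces, and lies at chr17:29090976-29100727 on the plus strand. Its level was 142, 255, 110 and 61 CPM with the Ptbp1 shRNA and 11.7, 28.2, 16.8, 28.4 and 26.3 CPM with the scrambled shRNA. With the PTBP1 vector it was 64.9, 80.4, 82.1, 68.9 and 73.6 CPM against 55.6, 64.4, 51.7 and 59 CPM. No library overlapped in either experiment, but in overexpression the highest control (64.4) and the lowest treated library (64.9) nearly met. It was 6.38-fold higher in silencing (log2 2.67, SE 0.42) and 1.28-fold higher in overexpression (log2 0.36, SE 0.10), and the sum of 3.03 (SE 0.45) had an adjusted p of 0.0054. The difference between the 2 fold changes was itself called (-2.31, SE 0.44, adjusted p = 0.0394), so the rise was larger in silencing.

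Dtl encodes a substrate receptor of the CUL4 ubiquitin ligase that marks p21 and a replication licensing factor for degradation, and lies at chr1:191537356-191575544 on the minus strand. It was at 58.7, 39.9, 72.9 and 27.7 CPM with the shRNA and at 9.24, 6.25, 18.9, 8.52 and 2.53 CPM with the scrambled shRNA. In overexpression the values were 32.2, 18.9, 26.5, 19.7 and 26.5 CPM against 17, 17.1, 16.7 and 18.2 CPM, so that both pairs of groups lay apart. The fold change was 5.48 in silencing and 1.44 in overexpression, and the sum was 2.97 (SE 0.60, adjusted p = 0.0279). Without PTBP1 OE replicate 1, 3 or 5, or without any 1 of the 4 control OE libraries, that call was lost, with an adjusted p of up to 0.0868 for Dtl.

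Promoter sequences were set beside these responses to show which of the alike genes carry well-known response elements. RefSeq promoter windows (GRCm38.p6), all of 1 length around the start of a gene, were found for 25 of the 34 alike higher and 25 of the 34 alike lower genes. Only the bases before the start were searched. In all, 13 motifs were searched on both strands, chosen after the responses were known: the core of the interferon response element, the paired core of the p53 element and the NRF1 site, and TGATGNAA (amino acid response), TGACGTCA and its part TGACG (cAMP response), TCACCCCAC (sterol response), CCAAT, TCAGCACC (part of the neuron-restrictive silencer), CCGGAAGT (ETS), GCGGGGGCG (EGR), TTCNNTTT (a loose interferon element) and CCACG (part of the unfolded protein response element). Each window below has 30 bases, written 5′ to 3′ on the strand of the gene, with the match in capitals. The first holds the p53 pair of Cdkn1a at chr17:29090923-29090952 (plus strand), and the others the cAMP element of Dtl at chr1:191575545-191575574 (minus strand) and of Zdbf2 at chr1:63273199-63273228 (plus strand).
Cdkn1a: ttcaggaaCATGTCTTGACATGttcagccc
Dtl: caatcagaaagcgTGACGTCAgtttggcgc
Zdbf2: cgcaccttcgcTGACGTCAgagctgcagtg
The p53 pair was in 1 of the 25 higher promoters (4%), that of Cdkn1a, and in 0.57% of all 27025 promoters. These 27025 are all genes with a promoter window, whether or not they were tested here. TGACGTCA was in 3 of the 25 higher promoters (12%), those of Dtl, Zdbf2 and D430042O09Rik, in 0 of the 25 lower ones and in 1.77% of all. Its part TGACG was in 56% of the higher, 20% of the lower and 19.8% of all promoters, and these matches include those of the full element. The NRF1 site was in 20% of the higher, 4% of the lower and 4.23% of all promoters. Both shares also varied between the gene lists described below. TGACG ranged from 14.3% (potassium channels and their partners) to 77.8% (immediate early genes), with 47.2% in splicing factors. The NRF1 site ranged from 0% (potassium channels and their partners) to 16.7% (cytosolic aminoacyl-tRNA synthetases). CCAAT was in 60%, 40% and 37.5%, and CCACG in 44%, 56% and 31%. The EGR motif was in 4% of the higher, 16% of the lower and 2.93% of all promoters. The ETS motif was in 12%, 4% and 3.23%, and the loose interferon element in 12%, 16% and 23.6%. The cores of the interferon and amino acid elements were in 0 of the 25 higher and in 1 of the 25 lower promoters each, beside 3.46% and 3.91% of all, the silencer part in 1 of each 25 beside 1.49%, and the sterol element in 0 of either beside 0.555%. These are matches of letters and not evidence of binding, and with 25 genes a share moves by 4 percentage points per gene. Zdbf2, a gene with a zinc finger, was at 150 to 252 CPM with the shRNA against 54.2 to 157 CPM and at 43.2 to 51.6 CPM with the PTBP1 vector against 26.9 to 47.9 CPM, with 1 control overlapping in each.

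Anks1, whose ankyrin repeat protein acts downstream of receptor tyrosine kinases, and Tbc1d22b, which encodes a protein with a Rab GTPase-activating domain, had sums that missed the threshold. Anks1 was at 3.58, 10.8, 3.56 and 11.3 CPM with the shRNA and at 1.07, 1.84, 0.279, 1.4 and 0.519 CPM with the scrambled shRNA. In overexpression Anks1 was at 8.58, 12.3, 7.32, 10.3 and 10.2 CPM against 4.83, 5.31, 5.39 and 6.58 CPM, and it did not overlap in either experiment (sum 3.65, SE 0.85, adjusted p = 0.0525). The exons of Taf11 on the other strand overlap those of Anks1. Tbc1d22b was at 21.0, 16.8, 35.6 and 23.2 CPM with the shRNA against 8.2, 3.46, 9.51, 5.32 and 0.649 CPM, and at 61.7 to 66.6 CPM with the PTBP1 vector against 52.8, 47.4, 62.3 and 53.2 CPM, where 1 control reached the treated range. Its summed response was 2.42 (SE 0.64, adjusted p = 0.0802), and its exons overlap those of Tmem217 and of an antisense gene, so its reads are uncertain.

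Among the lower genes, Kalrn encodes kalirin, a guanine nucleotide exchange factor that promotes the growth of dendritic spines. It lies at chr16:33969073-34573532 on the minus strand with no overlapping exons of other genes. Kalrn was at 329, 319, 342 and 515 CPM with the shRNA and at 883, 738, 834, 905 and 940 CPM with the scrambled shRNA. With the PTBP1 vector it was at 1540, 1720, 896, 1850 and 1550 CPM and with the control vector at 1710, 2420, 2300 and 2390 CPM. The silencing groups lay apart, whereas in overexpression control replicate 1 fell within the treated range. The level was 0.438-fold in silencing (log2 -1.19, SE 0.20) and 0.686-fold in overexpression (log2 -0.54, SE 0.17). The sum was -1.73 (SE 0.27, adjusted p = 0.0054), and it was lost only in limma voom (adjusted p = 0.156).

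Ppp3cb, which encodes a catalytic subunit of the calcium-activated phosphatase calcineurin, is another textbook Ptbp1 splicing target and lies at chr14:20499364-20546573 on the minus strand. It was at 613, 720, 943 and 573 CPM with the shRNA and at 1000, 1390, 1180, 955 and 1620 CPM with the scrambled shRNA. In overexpression it was at 793, 668, 681, 770 and 778 CPM against 861, 905, 873 and 872 CPM, and neither pair of groups overlapped. The level was 0.579-fold in silencing and 0.841-fold in overexpression, with a sum of -1.04 (SE 0.22, adjusted p = 0.0402). For Ppp3cb this call was lost with relative log expression size factors, without scrambled replicate 2 and without any 1 of the 9 overexpression and control OE libraries (adjusted p of up to 0.103).

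Tgfa encodes transforming growth factor alpha, a ligand of the epidermal growth factor receptor, and lies at chr6:86195223-86275719 on the plus strand. Its silencing fold change was the largest among the 12 genes. Its level was 1.19, 1.86, 3.45 and 0.366 CPM with the shRNA and 27.9, 33.5, 29.8, 14.8 and 22.5 CPM with the scrambled shRNA, far apart. With the PTBP1 vector it was 9.48, 8.66, 7.99, 11 and 12.8 CPM against 15, 11.9, 15.7 and 14.8 CPM, where 1 control lay within the treated range. The log2 fold change was -3.90 (SE 0.71) and -0.52 (SE 0.16), the sum -4.43 (SE 0.67, adjusted p = 0.0054), and the difference between the 2 responses was called as well (3.39, SE 0.67, adjusted p = 0.0443). Cdkn1a and Tgfa were the 2 alike genes among the 40 genes (0.225%) with a called difference.

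Epm2a encodes laforin, the glycogen phosphatase lost in Lafora epilepsy. It was at 22.9, 14.3, 26.7 and 24.9 CPM with the shRNA against 35.9, 30.1, 67.5, 46.4 and 78.3 CPM, and at 31.3, 23.9, 28.2, 22.4 and 23.1 CPM with the PTBP1 vector against 36.2, 34.9, 40.1 and 39.9 CPM. Both pairs lay apart, and the sum was -1.76 (SE 0.40, adjusted p = 0.0497), which for Epm2a was lost in limma voom, with relative log expression size factors, with no filter, and without scrambled replicate 3 or any 1 of the 9 libraries of the overexpression experiment (adjusted p of up to 0.116). Rnf6, a ubiquitin ligase gene, and Cap2, which encodes a cyclase-associated protein that recycles actin monomers, had sums of -1.08 (SE 0.26, adjusted p = 0.0583) and -0.99 (SE 0.29, adjusted p = 0.11). Cap2 was at 440, 685, 769 and 299 CPM with the shRNA against 789 to 1260 CPM, and at 193 to 227 CPM with the PTBP1 vector against 236 to 247 CPM, apart in both. Rnf6 was at 69.8 to 107 CPM with the shRNA against 112 to 209 CPM, and at 104 to 132 CPM with the PTBP1 vector against 130 to 150 CPM, and only the overexpression groups overlapped.

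Further called and alike genes were lower in both experiments. Chn2, the gene of beta-chimaerin, a GTPase-activating protein for Rac, was at 14.3 to 49.1 CPM with the shRNA against 82 to 175 CPM, with log2 fold changes of -2.08 (SE 0.39) and -0.27 (SE 0.11) and a sum of -2.35 (adjusted p = 0.00905). Wipf3, which encodes a partner of the actin regulators of the Wiskott-Aldrich family, had fold changes of -1.62 and -0.28 and a sum of -1.90 (adjusted p = 0.0074). Igfbp5, an insulin-like growth factor binding protein gene, had fold changes of -1.62 and -0.37 and a sum with an adjusted p of 0.0145, a call lost in limma voom (adjusted p = 0.0962). The reads of Chn2 and Wipf3 share an overlapping opposite-strand gene, 9130019P16Rik, which had its own called sum. Hecw2, a ubiquitin ligase gene, had groups apart in both experiments. It was at 66.4, 79.1, 92.4 and 94.5 CPM with the shRNA against 116 to 138 CPM, and 65.8 to 82.8 CPM with the PTBP1 vector against 90 to 104 CPM. Its fold changes were -0.59 (SE 0.23) and -0.43 (SE 0.09), and its sum of -1.02 had an adjusted p of 0.0355, lost in limma voom, with no filter and without any 1 library of the overexpression experiment (up to 0.106 for Hecw2).

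**Figure D3:**
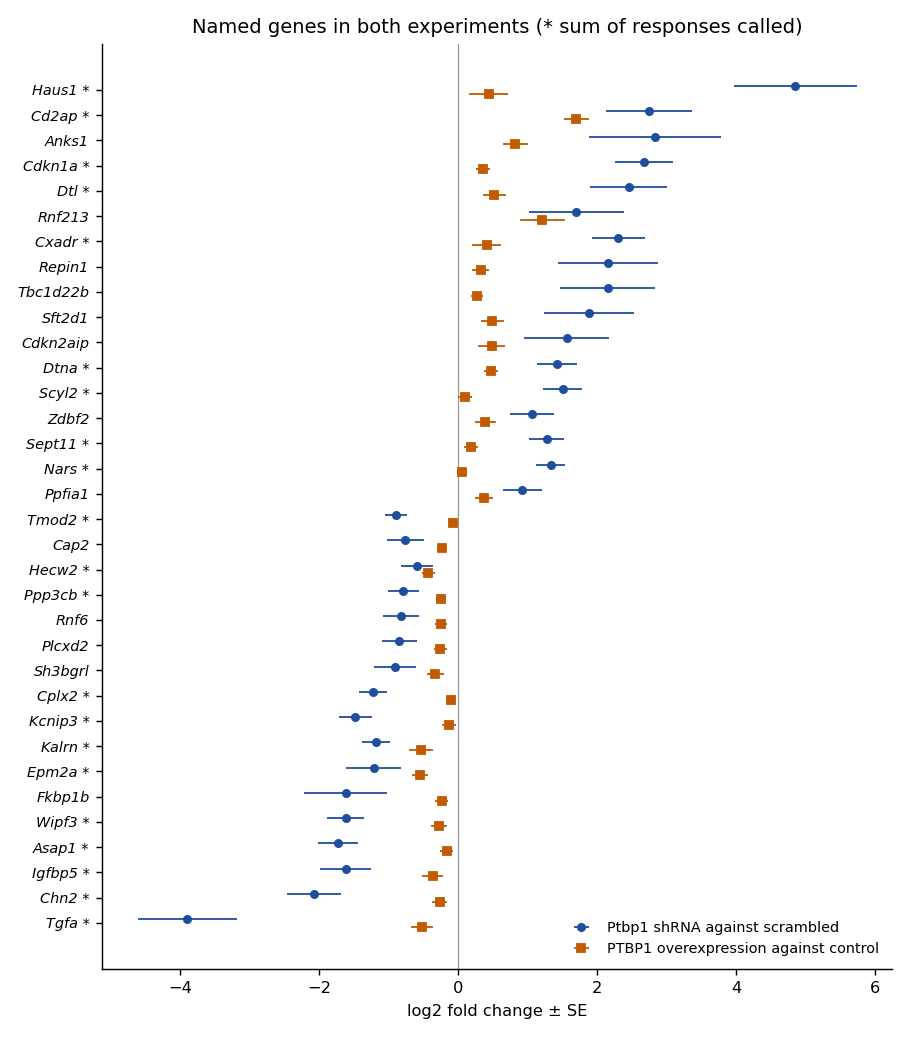
Log2 fold changes with their standard errors for the 34 genes named by response, in silencing (blue circles) and overexpression (orange squares), ordered by the summed response, with a star where the sum was called. Most squares lie closer to 0 than the circles of the same gene, and Cd2ap, Rnf213 and Hecw2 are among the few with responses of like size.

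The genes with the smallest p of the sum outside the alike set moved mainly in silencing. Nars, the cytosolic asparaginyl-tRNA synthetase gene, was at 334 to 397 CPM with the shRNA against 117 to 184 CPM, but its log2 fold change in overexpression was 0.05 (SE 0.07). Cplx2, whose complexin clamps vesicle fusion, and Kcnip3, whose product binds Kv4 potassium channels, had silencing fold changes of -1.23 (SE 0.20) and -1.48 (SE 0.24) beside -0.10 (SE 0.07) and -0.14 (SE 0.10) in overexpression. Asap1, a GTPase-activating protein gene for Arf, and Tmod2, which encodes a cap of actin filaments, gave -1.73 and -0.90 beside -0.17 and -0.08. Cxadr, the gene of an adhesion protein used by adenovirus as a receptor, was at 145 to 271 CPM with the shRNA against 17.4 to 74 CPM. In overexpression Cxadr was at 16.9 to 34.4 CPM against 13.9 to 22.2 CPM, with overlap. Nars, Cplx2, Kcnip3, Asap1, Tmod2, Haus1 and Scyl2 all had a called difference between the responses. Their unadjusted p in overexpression was 0.0972 (Asap1) to 0.472 (Nars) in edgeR's quasi-likelihood test, so a response of the same sign was not shown there. They were picked for the same fitted sign and a small p of the sum. With so small an overexpression change, the sum and the difference are nearly the same comparison.

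Below the 12, several alike genes lost that standing without single libraries. Usp18, which removes the ubiquitin-like protein ISG15, was at 1.89, 0.126, 8.8 and 1.39 CPM with the shRNA against 0 to 0.416 CPM, and at 3.73, 0.614, 3.28, 0.372 and 1.1 CPM with the PTBP1 vector against 0.238 to 0.684 CPM. It is a low gene whose groups overlap in both experiments, and it was not alike without shRNA replicate 3 or scrambled replicate 1. Rnf213, a large ubiquitin ligase gene that interferon induces, was at 25.9, 25.8, 13.1 and 27.3 CPM with the shRNA against 16.2, 0.954, 4.11, 8.26 and 6.03 CPM. With the PTBP1 vector Rnf213 was at 8.97, 5.16, 13.5, 5.58 and 6.32 CPM against 2.37, 2.69, 3.23 and 5.34 CPM, and in both experiments 1 control overlapped; it was not alike without any 1 of shRNA replicates 1, 2 and 4 or scrambled replicate 3, nor without the 2 libraries with the most bins at 0. Snap25, the membrane SNARE of synaptic vesicle fusion, was at 28500, 61200, 46200 and 42700 CPM with the shRNA against 54100 to 69000 CPM, and at 11300 to 14800 CPM with the PTBP1 vector against 14000 to 18100 CPM. Its log2 fold changes of -0.46 (SE 0.20) and -0.31 (SE 0.10) were among the closest in size, with overlap in both experiments, and it was not alike without any 1 of shRNA replicates 1, 3 and 4 or scrambled replicates 1, 4 and 5. Sesn2, a stress-induced regulator of TORC1, was at 1.01 to 12.7 CPM with the shRNA against 0.0324 to 1.72 CPM and at 6.51 to 11.7 CPM with the PTBP1 vector against 4.58 to 7.64 CPM, and it was not alike without shRNA replicate 1. Just inside the threshold, Col22a1 had a p of 0.0485 in overexpression and Dedd2 one of 0.0497, and just outside it Ifit2 had 0.05 and Nrxn3 0.0504.

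Exon bins, the stretches into which the authors' files divide each gene, showed whether a response ran along the whole gene. For Cd2ap, 13 of 14 bins with enough counts were higher in both experiments, with bin differences on the log2 scale from 1.36 to 2.29 in overexpression and from -0.16 to 4.23 in silencing. The silencing differences of Cd2ap ran from 3.33 in the first bin, in the order of the file, to -0.16 in the last. All 5 bins of Cdkn1a were higher in both. For Kalrn, 64 of 69 bins were lower in both, and for Ppp3cb 19 of 23. In overexpression the fall of Ppp3cb was uneven along the gene. Bins 16 to 20, in the order of the file, were at -0.43, -0.61, -0.69, -0.62 and -0.43. Bins 1 to 15 lay between -0.21 and 0.12. Epm2a had 2 of 4 bins lower in both, with overexpression differences of 0.26, 0.19, -0.06 and -0.64. Dtna held stretches of opposite direction in overexpression, and 12 of its 20 bins were higher in both experiments. In overexpression the last 5 bins were at 0.61, 0.95, 1.00, 0.97 and 1.28, while the 5 before them were at -0.25, -0.30, -0.29, -0.50 and -0.54. In silencing those last 5 bins of Dtna were at 3.69, 4.22, 4.01, 3.67 and 2.33, and the first 4 of these were the highest of the gene. The higher gene-level value of Dtna in overexpression therefore came with lower values in some bins, and bin differences carry no test here. Chn2 had 16 of 18 bins lower in both, Cap2 14 of 15 and Kcnip3 12 of 12, whereas Wipf3 had 3 of 11 and Rnf6 3 of 12. Tbc1d22b, whose bins are joined with those of overlapping genes, had 9 of 42 higher and 11 lower in both.

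**Figure D4:**
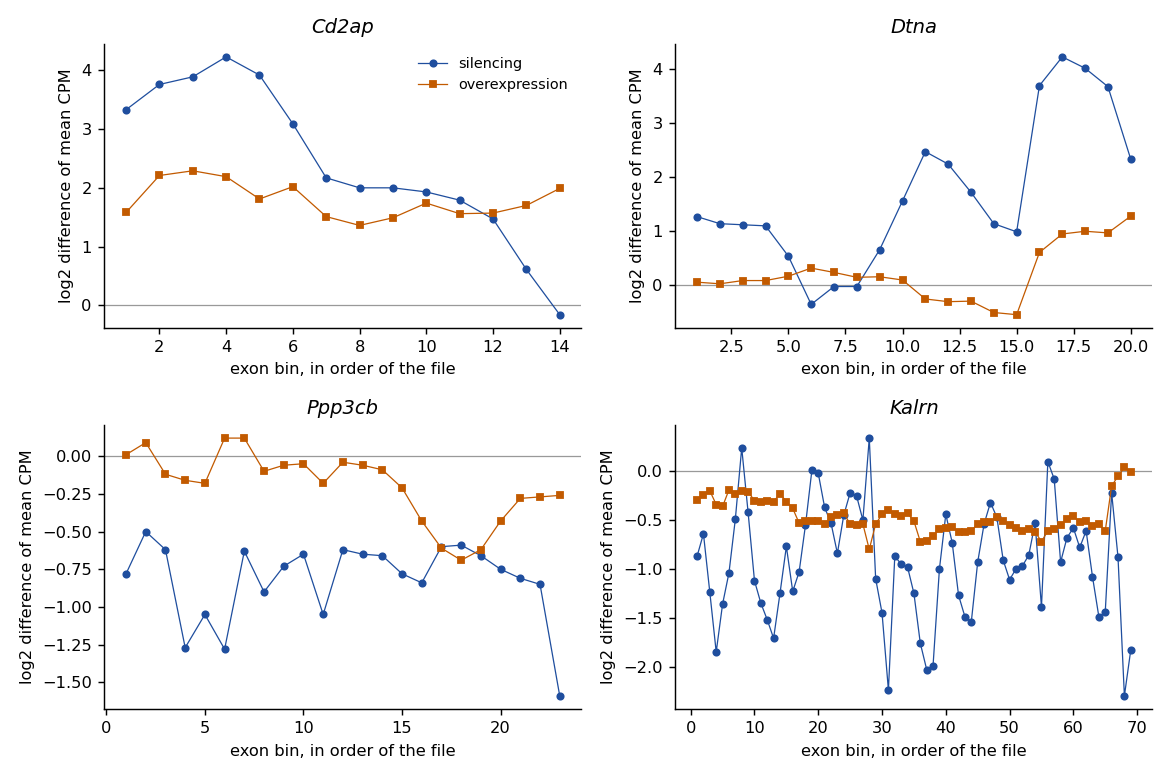
Log2 difference of mean CPM between treated and control libraries for each counted exon bin of Cd2ap, Dtna, Ppp3cb and Kalrn, in the order of the file, in silencing (blue) and overexpression (orange). The last 5 bins of Dtna stand above 0 in both experiments, while 64 of the 69 bins of Kalrn lie below 0 in both.

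Gene lists showed which known groups shared a direction. For comparison, 51.5% of all genes had the same sign in both experiments, with medians of 0.0233 in silencing and -0.00597 in overexpression on the log2 scale. Lists were chosen with earlier results of these data known, so their directions are a description.

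Each of the 5 neuronal lists given next held more genes lower in both experiments than higher in both, but most members were lower in both only among potassium channel and postsynaptic genes. Potassium channels and their partners had 18 of 29 genes lower in both and 1 higher, with medians of -0.36 in silencing and -0.14 in overexpression, and Kcnip3 called by the sum. Postsynaptic and spine genes had 16 of 25 lower in both and 2 higher (medians -0.23 and -0.14), with Kalrn and Nrxn3 called. Nrxn3, a presynaptic adhesion gene placed in this list for its role across the cleft, was at 130 to 146 CPM with the shRNA against 186 to 583 CPM, and its summed response of -1.66 had an adjusted p of 0.0294, lost in limma voom (adjusted p = 0.128) and without PTBP1 OE replicate 1, 2 or 3 or control OE replicate 2, 3 or 4. Synaptic vesicle and fusion genes had 12 of 25 lower in both and 4 higher (medians -0.25 and -0.09), with Cplx2 called and Snap25 alike. In silencing alone the vesicle genes were evenly divided, 12 higher and 13 lower, and their silencing median was 0 in limma voom and -0.03 without the 2 libraries with the most bins at 0. Markers of superficial excitatory neurons had 9 of 18 lower in both and 4 higher, with none called, and their summed level was 2640 to 3700 CPM with the shRNA, 4370 to 6400 CPM with the scrambled shRNA, 3610 to 4420 CPM with the PTBP1 vector and 4040 to 4660 CPM with its control. Their lower level in silencing moved with the neuronal lists, and its part in them was not tested. Interneuron markers were lower in both for 6 of 13 and higher in both for 1. In silencing 12 of the 13 were lower (median -0.47), and in overexpression the median was 0.03. They summed to 427 to 803 CPM with the shRNA against 560 to 779 CPM, and to 498 to 629 CPM with the PTBP1 vector against 427 to 799 CPM, with overlap in both.

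Cholesterol synthesis genes were mostly higher in both, 14 of 22 against 2 lower, with medians of 0.64 and 0.17. None was called by the sum. Hsd17b7 was the alike member, with log2 fold changes of 1.09 and 0.29, and Idi1, an early enzyme of isoprenoid synthesis, had 1.54 (SE 0.45) and 0.17 (SE 0.13). Cytosolic ribosomal protein genes were higher in both for 30 of 46, with small medians of 0.19 and 0.09 and none called. Targets of p53 were higher in both for 15 of 28 and lower in both for 2 (medians 0.54 and 0.06), with Cdkn1a and Zmat3 called. Zmat3, an RNA-binding target of p53, was at 1030 to 2320 CPM with the shRNA against 537 to 924 CPM, but at 400 to 435 CPM with the PTBP1 vector against 350 to 415 CPM. Its sum of 1.16 had an adjusted p of 0.046, lost with upper quartile scaling, with no filter, and without scrambled replicate 2 or 4 or any 1 of the 9 libraries of the overexpression experiment (up to 0.113 for Zmat3).

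Other lists had at least 1 median near 0 or medians of opposite sign. Unfolded protein and integrated stress genes had a silencing median of 0.95 but an overexpression median of -0.04, with 10 of 29 higher in both, and Atf3, a stress-induced transcription factor, was at 4.96 to 27.3 CPM with the shRNA, at 0 to 0.153 CPM with the scrambled shRNA and at 0.0442 to 1.11 CPM in overexpression. Aminoacyl-tRNA synthetases had medians of 0.67 and 0, with 3 called higher, of which Nars and Vars had the same sign in both. Interferon response and antigen presentation genes had a median of 0.01 in silencing and 1.05 in overexpression. Of their 23 genes, 12 were higher in both and 1 lower in both, 22 were higher in overexpression and 12 in silencing, and none was called by the sum, although with limma voom 17 were higher in both and the silencing median was 0.84. Mitochondrially encoded mRNAs were higher in silencing and lower in overexpression in 13 of 13 genes (medians 0.54 and -0.37), and none was called. Their summed level was 1190 to 3710 CPM with the shRNA, 511 to 1990 CPM with the scrambled shRNA, 65.8 to 170 CPM with the PTBP1 vector and 131 to 227 CPM with its control, with overlap in both experiments. Without the 2 silencing libraries with the most bins at 0, 4 of the 13 were lower in both and the silencing median was 0.12. Textbook Ptbp1 splicing targets had 11 of 28 lower in both and 5 higher, medians of -0.05 and -0.09, with Dtna called higher and Ppp3cb lower. Splicing factors had 9 of 42 higher in both and 10 lower, and microtubule motors 6 and 5 of 23, with 1 called higher that was opposite in sign. Immediate early genes had 8 of 21 higher in both and 6 lower, endocytic and actin adaptors 8 and 3 of 29 with Cd2ap called, and Alzheimer-associated genes 5 and 5 of 22, again with Cd2ap. Mapt, the tau gene, had log2 fold changes of -0.43 (SE 0.31) and 0.07 (SE 0.08).

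**Figure D5:**
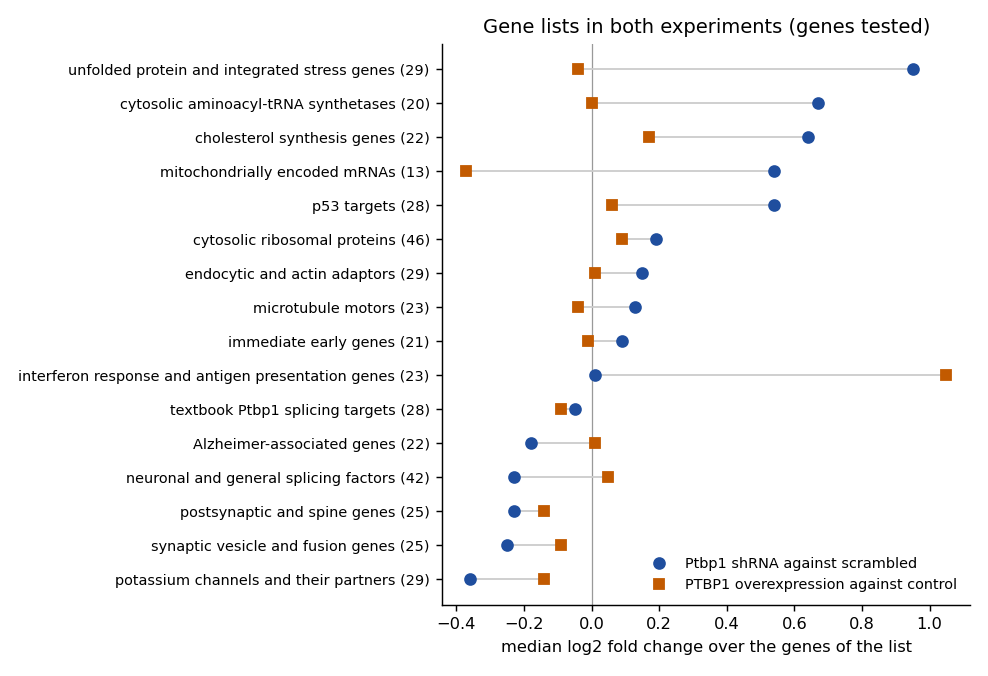
Median log2 fold change over the genes of each of 16 lists in silencing (blue circles) and overexpression (orange squares), with the number of genes tested in brackets. Potassium channels (-0.36 and -0.14) and cholesterol synthesis genes (0.64 and 0.17) have both medians on one side of 0, while mitochondrially encoded mRNAs (0.54 and -0.37) do not.

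Markers of other cell types differed in direction between lists. Astrocyte markers had 4 of 11 genes lower and 3 higher in both, with Atp1b2, a pump subunit that neurons may also hold, called lower: it was at 77.6 to 183 CPM with the shRNA against 239 to 355 CPM, and at 86.3 to 173 CPM with the PTBP1 vector against 122 to 157 CPM. Its call was lost in limma voom, without shRNA replicate 3, without PTBP1 OE replicate 1, 2 or 3 or without any 1 control OE library (adjusted p of up to 0.101 for Atp1b2). Reactive astrocyte markers were higher in both for all 4 tested of the 10 listed (medians 1.19 and 0.62), with none called. They summed to 7.87 to 41.8 CPM with the shRNA against 1.59 to 19.9 CPM and to 14.9 to 31.9 CPM with the PTBP1 vector against 13 to 22.6 CPM. Microglial markers summed to at most 26.3 CPM in any library, and 0 of the 4 tested shared a direction. Vessel markers were higher in both for 3 of the 4 tested and lower in both for 0 (medians 0.77 and 0.24), and summed to 15.7 to 171 CPM with the shRNA against 13.9 to 72.4 CPM and to 16.9 to 66.8 CPM with the PTBP1 vector against 13.1 to 52.7 CPM. Hippocampal neuron markers were higher in both for 2 of 7 and lower in both for 2 (medians -0.72 and 0.16). They summed to 116 to 243 CPM with the shRNA against 256 to 328 CPM, without overlap, and to 372 to 445 CPM with the PTBP1 vector against 417 to 436 CPM. Oligodendrocyte markers were higher in both for 1 of 7 and lower in both for 1, and none of these 3 lists held a call. The part of these cells in the responses of the alike genes was not tested.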

How the data were processed

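The data are counts per Ensembl gene and per exon bin that the authors deposited for 18 TRAP libraries. The deposited counts are whole numbers with no normalization. STAR 2.5.3a and HTSeq with build mm10 are named in the submitters' processing notes. Neither annotation release nor strand use is stated there. Among other named genes, Cxadr, Haus1, Usp18, Rnf213 and Nrxn3 also have opposite-strand exon overlaps, and Wipf3 has one with Scrn1. Symbols were found for 37607 of 39017 gene identifiers. Groups follow the treatment labels.

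Counts were fitted with edgeR 4.0.16 in R 4.3.3 (filterByExpr, TMM, robust quasi-likelihood, Benjamini-Hochberg adjustment at 0.05): each experiment alone, and all 18 libraries with 4 group means and 1 spread, from which the sum and the difference of both responses were tested. The filters kept 14656, 16480 and 17779 genes, of which 14367 were in all 3 fits. SE is the size of the log2 fold change over the square root of F. Alike means the same sign and an unadjusted p under 0.05 in both separate fits. Exon bins averaging 0.5 CPM or more in both experiments were compared by group means, with no test.

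The members, lists and motifs were chosen with earlier results of these data known. The naming rule takes Ptbp1, Ptbp2, Ptbp3, Cd2ap, Cdkn1a and Mapt, then up to 12 higher and 12 lower alike genes whose average log2 CPM reached 1 in each experiment, ranked by the larger of the 2 p-values. It adds up to 5 further genes per direction by the p of the sum, and up to 3 members of each of the 24 lists. Of the 68 alike genes, 49 could be named by that rule, 7 lack a usual symbol and 12 are too low. D430042O09Rik, 9130019P16Rik, Dab1, Hsd17b7, Col22a1 and Dedd2 were named outside the rule, after their values were seen.

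Alternatives were DESeq2 1.42.0, limma 3.58.1 voom with quality weights, other scalings and filters, each library left out in turn, no robust estimates, and 1 surrogate variable (sva 3.50.0). After the data had been seen, 2 were added: leaving out the 2 silencing libraries with the most strong bins at 0, and that share as a covariate. Depth per library was 18288627 to 46544178 counts. Replicate numbers only name the libraries, which were treated as unpaired.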

Additional observations from a re-analysis of the deposited data

Results flagged for a closer look

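The 34 genes named by response and Ptbp1, Ptbp2, Ptbp3 and Mapt, 38 genes in all, were screened for outlying libraries. A library far from the rest of its group was sought in each of the 4 groups, 152 in all, of which 12 held one. The cutoff gives about 1 in 20 only for independent, normally distributed values. The 38 genes share the same libraries and their CPM need not be normal, so that rate is no yardstick here. Scrambled shRNA replicate 5 was the highest of its group for Dtna (196 CPM, next 99.7), Cap2 (1260, next 891), Ppfia1 (78.8, next 53.2), Wipf3 (1200, next 690), Scyl2 (116, next 72.4) and Ptbp3 (76.9, next 51.7). This is 1 of the 2 silencing libraries with the most strong bins at 0 (7.61%), and the part of that in these values was not tested. Scrambled shRNA replicate 2 was the highest for Cd2ap (70.5 CPM, next 17). Ptbp1 shRNA replicate 4 was the highest for Kalrn (515 CPM, next 342) and replicate 3 the lowest for Rnf213 (13.1, next 25.8). In overexpression, control replicate 4 was the lowest for Dtna (72.2 CPM, next 84.8), control replicate 1 the lowest for Kalrn (1710, next 2300) and PTBP1 OE replicate 5 the lowest for Scyl2 (32.4, next 38.1).

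The size of the response differed between the experiments, by the test of the difference in edgeR over all genes, for 9 of the 38 genes. All 9 had the same fitted sign in both, but only Cdkn1a and Tgfa had an unadjusted p under 0.05 in overexpression. Overexpression minus silencing, on the log2 scale, was -2.31 for Cdkn1a (adjusted p = 0.0394), -4.40 for Haus1 (0.0394), -1.27 for Nars (0.0174) and -1.40 for Scyl2 (0.0497), all with the larger rise in silencing. It was 3.39 for Tgfa (adjusted p = 0.0443), 1.57 for Asap1 (0.0415), 1.14 for Cplx2 (0.0223), 1.35 for Kcnip3 (0.033) and 0.83 for Tmod2 (0.0335), all with the larger fall in silencing.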

How the results depend on the processing

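The sum called 103 genes, against 754 in DESeq2, 102 in limma voom (52 of them among the 103) and 149 with upper quartile scaling, with 50.1%, 52.9% and 32.2% of calls higher. The 754 had the same sign in both experiments for 423 and the 149 for 118, against 78 of the 103. A surrogate variable gave 418 calls (252 same sign, 300 for the difference), the share of bins at 0 as a covariate 381 (251, 216), and leaving out the 2 silencing libraries with the highest share 435 (292, 275). DESeq2 gave 667 calls of the difference against 40, and no filter on low counts 17. Without one library the sum had 36 to 350 calls (30 to 240 same sign), the difference 1 to 174, alike genes 54 to 90 and opposite genes 15 to 36. By construction, leaving out a library of the quieter overexpression experiment gives the silencing spread more weight in the shared estimate, and the sum had its fewest calls there (36 without control OE replicate 3, 350 without Ptbp1 shRNA replicate 4). With no filter 125 genes were alike and 73 opposite. Opposite genes numbered 31 in DESeq2, 31 in limma voom, 32 without the 2 libraries and 31 with the covariate, against 19. The part of the weight of the silencing spread in the numbers of calls was not tested, and neither was the cause of the other differences. The Ptbp1 difference in silencing ranged from -0.93 to 0.56 and was above 0 without shRNA replicate 2 (0.56) or 3 (0.28) or scrambled replicate 3 (0.12) or 5 (0.22); in overexpression it ranged from 3.21 to 3.47. Among single genes, 2333 recomputed sums kept their side of the threshold, 137 passed it, 90 lost it and 2 changed sign: the Cnp summed log2 fold change, -0.15, was 0.05 without Ptbp1 shRNA replicate 1 and 0.08 without the 2 libraries (-0.37 to 0.05 without one library). Cd2ap, Cdkn1a, Dtna, Tgfa, Chn2 and Wipf3 stayed called in all 28 alternatives. No paired analysis was run, because the labels do not say which libraries, if any, belong together as pairs. Depth limits low genes such as Usp18, and the spread of the silencing libraries limits the rest.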
